A study of Homo sapiens with 10 samples.

Results

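The genes described here are the ATP-binding cassette (ABC) transporter genes in Caco-2 cells, a human colorectal adenocarcinoma line widely used as a model of the intestinal epithelium. Members were chosen by name: every gene with a protein_coding transcript and a symbol beginning with ABC, a subfamily letter from A to G and a number. This gave 45 genes among the 19655 genes with a protein_coding transcript. All libraries came from a Caco-2 line carrying a CRISPR interference plasmid (dCas9-KRAB, a repressor brought to DNA by a guide RNA), taken from a stable clone and then selected with hygromycin. The 5 gCtl libraries came from cells infected with an empty guide plasmid. The 3 libraries labelled g1 and the 2 libraries labelled g2 came from cells carrying 1 of 2 guide RNAs against the long non-coding RNA LHFPL3-AS2, and cells were grown as monolayers. RNA was read at the 3' end of transcripts (QuantSeq), and the level of a gene is given as CPM (counts scaled to 1000000 per library) adjusted by TMM, edgeR's trimmed-mean library scaling. The number of separate cultures or clones is not stated, so p-values measure only the spread between these libraries, which may be technical.

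The libraries held 3838803 to 8730468 estimated counts, with medians of 5218021 in gCtl, 5755231 in g1 and 6727892.5 in g2. The targeted RNA was sparse, at 4.39 to 44.0 estimated counts per library, and was not lower in the libraries labelled as knockdown. The authors reported a reduction by qPCR with both guides, and counts this few do not decide whether it was reduced. LHFPL3-AS2 stood at 0.84 to 3.73 RPM (reads scaled to a total of 1000000 per library, without TMM scaling) in gCtl, at 2.03 to 3.95 in g1 and at 2.16 and 6.01 in g2. The names g1 and g2 are therefore used here as the labels of libraries. Of 13 intestinal epithelial markers 10 passed the expression filter, while SI, ALPI and CDX1, which mark differentiated or intestinal-type cells, did not. SI had 2 counts in gCtl, 39 in g1 and 17 in g2. Of the 10, none was called in the pooled comparison or in g1, and in g2 KRT20 was higher (2.72 to 10.2 CPM, log2 1.91) and KRT18 lower (490 to 284 CPM, log2 -0.78). Summed fibroblast markers reached at most 11.3 RPM and endothelial markers 10.1 RPM, against 2036 to 2930 RPM for the epithelial list. Endothelial markers were at 2.15 to 3.66 RPM in gCtl, at 4.93 to 10.1 in g1, where PECAM1 was called higher (1.29), and at 2.20 to 4.52 in g2. The leukocyte markers summed to 13.6 to 24.01 RPM in gCtl, 12.3 to 29.7 in g1 and 20.4 to 21.5 in g2, and CD14 was called lower in the pooled comparison (-1.67). The part of these markers in the results below was not tested.

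ABC proteins bind and hydrolyse ATP in paired nucleotide-binding domains, and most use that energy to move a substrate across a membrane. Subfamilies A and G mainly handle sterols and phospholipids, and B and C include the drug and conjugate pumps of the gut, liver and kidney. Most D members import fatty acyl substrates into peroxisomes, while ABCD4 is lysosomal. Subfamilies E and F have the ATP-binding domains but no membrane span, and act in translation and ribosome recycling. In the intestinal epithelium the apical pumps ABCB1 (P-glycoprotein), ABCC2 (MRP2) and ABCG2 (BCRP) return drugs and conjugates to the lumen.

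Of the 45 genes, 29 passed the filter of more than 3 RPM in at least 20% of libraries and were tested. In g1 and g2 together against gCtl, 4 members fell and 2 rose, where 11.0% of all genes tested fell and 8.14% rose. ABCA3, ABCB6, ABCC9 and ABCD3 were lower, and ABCC2 and ABCG2 were higher. A gene was called when edgeR's quasi-likelihood test gave an adjusted p (Benjamini-Hochberg over 11640 genes) of at most 0.05 and the fold change was at least 1.5. The 6 called members were 20.7% of the 29, where 19.2% of all genes tested were called in this comparison, so the share among ABC genes was near the background. In g1 against gCtl 2 rose and 5 fell (24.1%, against 16.7% of all genes, with 6.81% higher and 9.91% lower), and in g2 against gCtl 3 rose and 5 fell (27.6%, against 23.7%, with 10.7% higher and 13.0% lower). In g2 against g1, 1 member was higher and 2 were lower (10.3%, against 4.97%, with 1.55% higher and 3.42% lower). The median log2 fold change of the 29 was -0.03 in the pooled comparison, 0.05 in g1, -0.07 in g2 and -0.16 in g2 against g1, beside 0.02, 0.01, -0.00 and 0.01 for all genes tested. The g1 and g2 comparisons share the gCtl libraries, so their values are set side by side and only g2 against g1 tests the difference. In bulk RNA, fewer cells of a type and less RNA per cell cannot be told apart.

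Members were called in the same direction with both guide labels in 4 cases: ABCA3, ABCC9 and ABCD3 were lower and ABCC2 was higher. These are 13.8% of the 29, beside 9.27% of all genes tested, and because both comparisons use the same gCtl libraries nothing is read from the difference. Their promoter windows are shown because these genes carry the results on which both labels meet. Each runs from 250 bases before to 50 bases after the start given by RefSeq on GRCh38.p14, 5′ to 3′ on the gene's strand, and capitals mark the GC box GGGCGG on either strand. The windows are chr16:2340679-2340978 (minus strand) for ABCA3, chr12:21941377-21941676 (minus) for ABCC9, chr1:94418139-94418438 (plus) for ABCD3 and chr10:99782390-99782689 (plus) for ABCC2.
ABCA3: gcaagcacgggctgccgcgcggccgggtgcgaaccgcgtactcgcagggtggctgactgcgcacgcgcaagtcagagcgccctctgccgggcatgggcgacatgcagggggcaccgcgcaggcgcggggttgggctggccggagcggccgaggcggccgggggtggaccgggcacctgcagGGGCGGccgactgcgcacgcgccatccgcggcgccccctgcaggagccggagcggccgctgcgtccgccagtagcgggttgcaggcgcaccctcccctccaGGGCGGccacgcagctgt
ABCC9: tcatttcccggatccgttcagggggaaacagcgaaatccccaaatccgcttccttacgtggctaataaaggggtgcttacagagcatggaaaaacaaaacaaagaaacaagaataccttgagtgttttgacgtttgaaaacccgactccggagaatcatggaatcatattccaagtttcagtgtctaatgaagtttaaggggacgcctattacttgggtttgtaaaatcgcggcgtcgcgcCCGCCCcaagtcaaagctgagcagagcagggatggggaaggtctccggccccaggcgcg
ABCD3: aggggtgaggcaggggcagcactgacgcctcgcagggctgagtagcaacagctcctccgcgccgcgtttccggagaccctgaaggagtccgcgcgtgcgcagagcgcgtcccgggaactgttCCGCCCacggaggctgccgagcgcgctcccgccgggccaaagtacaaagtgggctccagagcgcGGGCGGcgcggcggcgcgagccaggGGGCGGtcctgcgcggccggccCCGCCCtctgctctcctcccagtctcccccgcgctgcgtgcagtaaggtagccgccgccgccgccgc
ABCC2: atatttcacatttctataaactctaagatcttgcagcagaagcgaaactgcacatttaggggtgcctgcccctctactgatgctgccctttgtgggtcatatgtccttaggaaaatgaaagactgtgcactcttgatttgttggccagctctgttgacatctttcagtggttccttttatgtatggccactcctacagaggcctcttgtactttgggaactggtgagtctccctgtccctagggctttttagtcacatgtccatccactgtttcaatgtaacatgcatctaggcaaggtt

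These 4 promoters are unlike in composition. ABCA3 and ABCD3 have GC-rich windows, at 78.0% and 75.0% G or C with 42 CpG dinucleotides each, and hold 2 and 4 GC boxes. The ABCC9 window has 49.7% G or C, 18 CpG and 1 GC box. The ABCC2 window has 45.0% G or C, 1 CpG and no GC box. A RefSeq window was found for 35 of the 45 members. A GC box was in 18 of the 35, and in 45.0% of all 35116 promoters of the same length. The other motifs searched on both strands were AGGTCA (a nuclear receptor element, in 2 members and 13.8% of all promoters), CACGTG (an E-box, in 4 and 7.26%), CCAAT (in 6 and 34.6%) and TATAAA (in 5 and 11.5%), and no hits of different motifs shared bases in these members. A match describes letters only, and no factor's binding was measured.

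Expression of the family was dominated by a few genes. ABC counts made up 0.0893% to 0.128% of all estimated counts of a library. On the RPM scale, averaged over the 10 libraries, the highest levels reported were ABCF1 at 346, ABCC2 at 116, ABCE1 at 101, ABCC4 at 89.3, ABCB1 at 74.0, ABCD3 at 54.3 and ABCF2 at 42.7. This mean pools all groups, and in gCtl alone the CPM means put ABCC4 (91.8), ABCE1 (90.2) and ABCB1 (77.1) above ABCC2 (73.2). Divided by annotated transcript length (TPM), ABCF1 stayed first at 323 and ABCE1 was second at 71.3, followed by ABCC4 at 48.9, ABCC2 at 36.7, ABCD3 at 35.3 and ABCB1 at 32.2. Reads from the 3' end do not grow with transcript length, so the order on the TPM scale leans towards short transcripts. In the order by RPM, ABCF1 stood above ABCC2 in every library, and the ranges over the 10 libraries overlapped in the other 5 of 6 neighbouring pairs among these 7 genes.

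Not tested were 16 members, of which 15 are given here. ABCD2 (peroxisomal) and ABCG4 (sterol) had 0 counts in all 10 libraries, which allows up to 0.0528 RPM at 3 counts of the summed total and covers counting error only. ABCC8 and ABCC12 had 1 count each, ABCA4 had 3, ABCC11 had 4, ABCG8 had 8, ABCG1 had 10.3, ABCB11 (the bile salt export pump) had 15, ABCA10 had 16.1, ABCB5 had 34.7, ABCB4 had 37, ABCA12 had 45, ABCA8 had 50.8 and ABCA13 had 61.3 estimated counts over all libraries. These genes were removed by the filter on low values. In an edgeR fit without the filter 13 of them entered and none was called in any comparison (lowest adjusted p = 0.0796), and 1, ABCB4, a phospholipid floppase of bile, had an unadjusted p under 0.05. ABCB4 had 5 counts in gCtl, 22 in g1 and 10 in g2, at 0.18 ± 0.257, 1.09 ± 0.42 and 0.879 ± 1.04 CPM. ABC-named genes without a protein_coding transcript are outside the rule, among them ABCA17P with 480 counts, ABCC6P1 with 459 and ABCC13 with 31.0.

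Among the lipid transporters the clearest difference was in ABCA3, a phospholipid transporter known for loading surfactant lipid into the lamellar bodies of lung cells. ABCA3 was at 12.0, 13.6, 12.4, 13.2 and 12.8 CPM in gCtl, at 4.50, 4.64 and 2.92 in g1 and at 1.79 and 4.22 in g2. All 5 libraries with a guide lay below every gCtl library, and the gCtl values spanned a narrow range (12.8 ± 0.64, SD, n = 5). The log2 fold change was -1.83 ± 0.25 (SE) in the pooled comparison (edgeR adjusted p = 0.000237), -1.69 ± 0.28 in g1 (adjusted p = 0.00102) and -2.06 ± 0.34 in g2 (adjusted p = 0.000672). The difference between the guides was -0.37 (95% interval -1.16 to 0.43, adjusted p = 0.619). ABCA3 overlaps the pseudogene ABCA17P on the opposite strand over 1597 bases, at the 5' ends of both gene spans, while reads came from the 3' ends of transcripts. Strand-aware counting is not stated, and the effect of the overlap was not tested. The ABCA17P level was 9.80 ± 3.94 CPM in gCtl, 8.89 ± 0.668 in g1 and 6.49 ± 1.26 in g2.

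ABCA1, which passes cholesterol and phospholipid to apolipoprotein A-I, fell in g2 alone among the calls. Its levels were 9.25, 16.0, 21.6, 11.1 and 19.7 CPM in gCtl, 22.7, 26.2 and 5.48 in g1 and 7.53 and 2.76 in g2. Both g2 libraries lay below every gCtl library, while the g1 libraries lay on either side of the gCtl range. On the log2 scale the fold change was -1.63 ± 0.55 in g2 (edgeR adjusted p = 0.0376) and 0.18 ± 0.41 in g1 (adjusted p = 0.794), and g2 against g1 was -1.81 ± 0.58 (adjusted p = 0.0808). The g2 call was lost without gCtl replicate 2, 3 or 5 or without g2 replicate 2 (adjusted p 0.0615, 0.0731, 0.0551 and 0.307), and without g1 replicate 3 the difference between guides was called at -2.25 (adjusted p = 0.0105). The other tested lipid transporters, ABCA2, ABCA7 and ABCG5 (with ABCG8, the sterol efflux pump of the gut), had pooled log2 fold changes of -0.73, -0.53 and 0.79 and did not pass. ABCG5 is a low gene at 2.40 ± 1.17 CPM in gCtl, and 98.9% of its counts were assigned to a nonsense-mediated decay transcript. The gene span of ABCG5 overlaps that of ABCG8 on the opposite strand over 6924 bases, introns included. This overlap is at the 5' ends of both spans, while reads came from the 3' ends of transcripts, and its effect on the counts was not tested.

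The channel regulator ABCC9 (SUR2) differed between the guides as well as from gCtl. SUR2 proteins surround the potassium pore Kir6.1 or Kir6.2 to form ATP-sensitive potassium channels. ABCC9 was at 24.8, 32.5, 28.5, 30.1 and 25.5 CPM in gCtl, at 20.2, 18.02 and 16.5 in g1 and at 5.6 and 4.8 in g2. The 3 groups did not overlap, with g1 between gCtl and g2. The fitted log2 change was -1.12 ± 0.32 pooled (edgeR adjusted p = 0.0206), -0.64 ± 0.17 in g1 (adjusted p = 0.0164) and -2.45 ± 0.23 in g2 (adjusted p = 7.9e-06). In g2 against g1 it was -1.81 ± 0.24 (adjusted p = 0.000823), a level 0.284 times that of g1. The g1 call was lost without gCtl replicate 2 (-0.58, under the fold minimum) and without g1 replicate 2 or 3 (adjusted p 0.0526 and 0.0696), and the pooled call without gCtl replicate 2 (adjusted p = 0.0524). The g2 call held in each of the 7 fits without 1 library.

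KCNJ8, which encodes the Kir6.1 pore, lies 21.8 kb from ABCC9 on chromosome 12 and on the same strand. It was at 8.75, 8.26, 13.6, 13.5 and 8.62 CPM in gCtl, at 1.33, 0.42 and 1.46 in g1 and at 0.18 and 0.44 in g2. All libraries with a guide were below all gCtl libraries, and the log2 fold change was -3.67 ± 0.40 pooled (edgeR adjusted p = 6.17e-05), -3.20 ± 0.40 in g1 (adjusted p = 0.000127) and -4.95 ± 0.58 in g2 (adjusted p = 4.35e-05). These KCNJ8 values rest on 263 counts in gCtl, 22 in g1 and 4 in g2. The other pore, KCNJ11, and its partner ABCC8 were not tested, with 72.8 counts and 1 count in all.

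**Figure D1:**
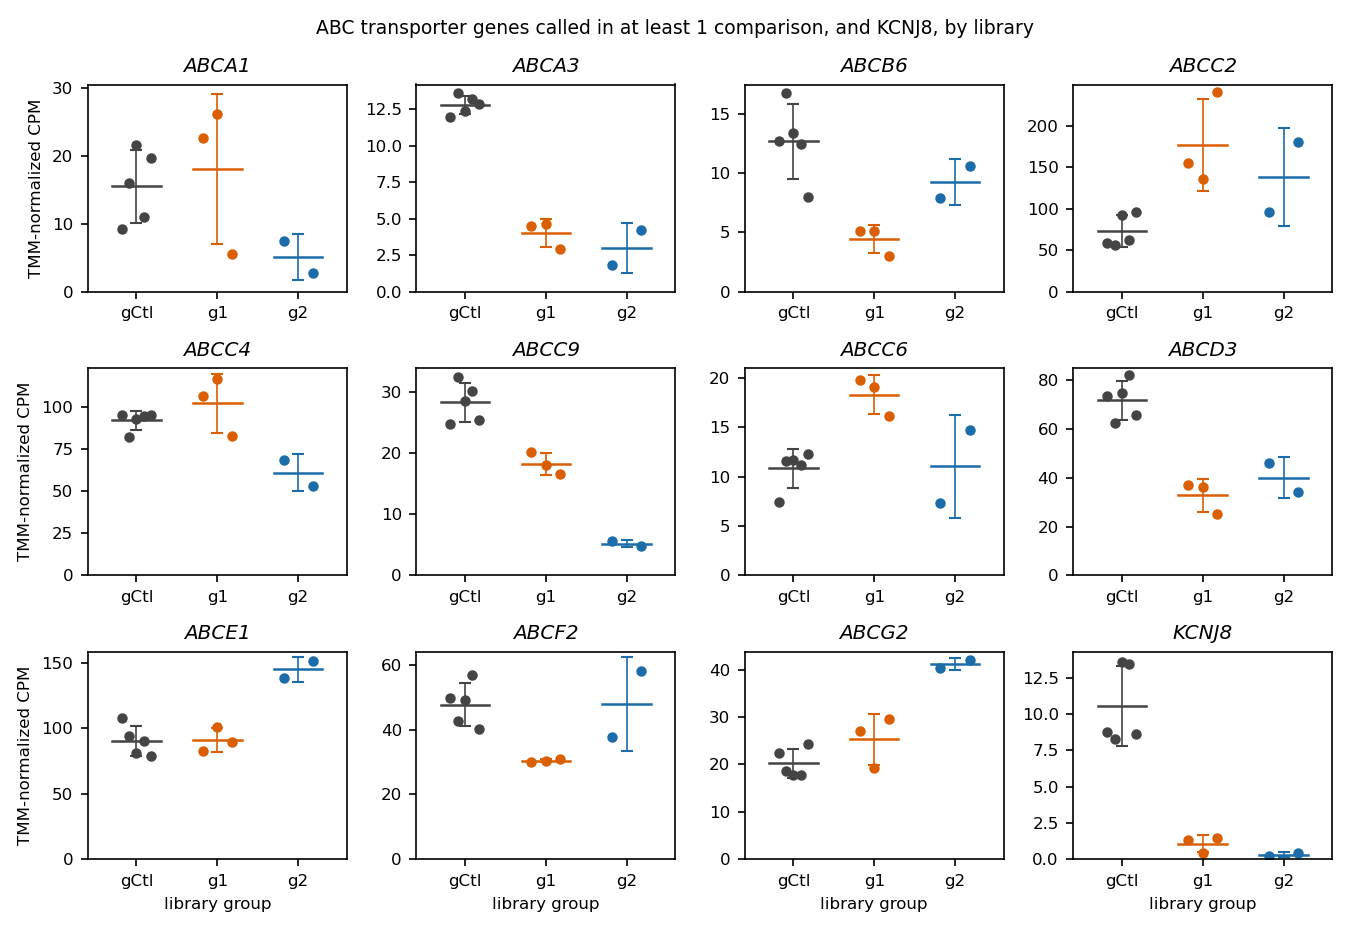
TMM-normalized CPM (vertical axis, from 0) of the 11 members called in at least 1 comparison and of KCNJ8, with 1 point per library, horizontal lines at group means and bars of 1 SD (n = 5 gCtl, 3 g1, 2 g2). The groups of ABCC9 are separate and ordered gCtl, g1, g2, and all points of ABCA3, ABCD3 and KCNJ8 with a guide lie below all gCtl points.

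The peroxisomal transporter ABCD3 (PMP70), which brings branched-chain and long-chain acyl substrates to beta-oxidation, was lower with both guides. Its levels were 73.7, 62.4, 74.6, 82.1 and 65.6 CPM in gCtl, 37.0, 36.3 and 25.0 in g1 and 45.9 and 34.0 in g2. No library with a guide reached the gCtl range. Its log2 fold change was -1.01 ± 0.16 pooled (edgeR adjusted p = 0.00054), -1.14 ± 0.17 in g1 (adjusted p = 0.000476) and -0.84 ± 0.20 in g2 (adjusted p = 0.00587), with a difference between guides of 0.29 (95% interval -0.15 to 0.73). The g2 call was lost without g2 replicate 2 (-0.63, adjusted p = 0.0845). The lysosomal transporter ABCD4, which takes part in cobalamin export, was at 11.6 ± 2.64 CPM in gCtl, 16.1 ± 1.3 in g1 and 14.3 ± 1.1 in g2, and the lysosomal peptide transporter ABCB9 at 19.6 ± 2.90, 25.3 ± 0.726 and 22.3 ± 12.8. Neither passed in any comparison. The peroxisomal paralog ABCD2 was not tested.

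Among the mitochondrial members ABCB6 fell, and ABCB8 and ABCB10 did not pass. ABCB6, a porphyrin-linked transporter that is also found outside mitochondria, was at 12.7, 16.8, 13.4, 12.4 and 7.99 CPM in gCtl, at 5.15, 5.10 and 3.04 in g1 and at 7.86 and 10.6 in g2. The g1 libraries lay below all gCtl libraries, while 1 g2 library lay just below the lowest gCtl library and 1 within the gCtl range. The log2 fold change was -1.54 ± 0.29 in g1 (edgeR adjusted p = 0.00217), -0.45 ± 0.31 in g2 (adjusted p = 0.297) and -0.99 ± 0.30 pooled (adjusted p = 0.0271). The difference of 1.09 ± 0.35 between the guides did not pass (adjusted p = 0.0808), and the pooled call was lost in 7 of 10 fits without 1 library, those without gCtl replicate 1, 2, 3 or 4 or any g1 library (adjusted p 0.0521 to 0.0789). Only 14.3% of the ABCB6 counts were assigned to a protein_coding transcript. The leading form was the retained-intron ABCB6-006 (49.0%), at 4.26 ± 0.938 CPM in gCtl and 3.44 ± 0.607 in g1. The protein_coding ABCB6-001 was at 1.93 and 0.993 CPM. ABCB6-012 (nonsense-mediated decay) was at 0, 9.75, 4.39, 5.57 and 0 CPM in gCtl and 0 in every g1 library. ABCB6-014 (retained intron) was at 6.26, 0, 2.93, 1.9 and 0 CPM in gCtl and 0 in every g1 library. Much of the fall in g1 thus lay on ABCB6-012 and ABCB6-014, which varied within gCtl.

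Of the apical efflux pumps, ABCC2 rose with both guides. ABCC2 was at 58.7, 56.4, 92.4, 62.1 and 96.2 CPM in gCtl, at 155, 135 and 240 in g1 and at 96.1 and 180 in g2. All g1 libraries were above all gCtl libraries, and the lower g2 library lay just below the highest gCtl library. On the log2 scale the fold change was 1.14 ± 0.23 pooled (edgeR adjusted p = 0.00282), 1.27 ± 0.24 in g1 (adjusted p = 0.0019) and 0.92 ± 0.27 in g2 (adjusted p = 0.0201). Without g2 replicate 2 the g2 value was 0.40 (adjusted p = 0.428), and the guides differed by -0.36 (95% interval -0.997 to 0.28).

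ABCG2 rose in g2. Its levels were 22.5, 18.7, 17.8, 17.8 and 24.3 CPM in gCtl, 27.0, 19.2 and 29.7 in g1 and 40.3 and 42.2 in g2. The g2 libraries were above all others, and the g1 range overlapped gCtl. The fitted log2 change was 1.03 ± 0.20 in g2 (edgeR adjusted p = 0.00174), 0.33 ± 0.18 in g1 (adjusted p = 0.21), 0.65 ± 0.20 pooled (adjusted p = 0.03) and 0.70 ± 0.22 in g2 against g1 (adjusted p = 0.0747). The pooled call was lost without gCtl replicate 2, 3 or 4 or without either g2 library (adjusted p 0.0655 to 0.0758). The lower bound of the g2 interval was 0.61 on the log2 scale.

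ABCB1, the third apical pump, varied as much within gCtl as between groups. It was at 44.7, 54.2, 119, 63.1 and 105 CPM in gCtl, at 58.5, 52.5 and 141 in g1 and at 46.6 and 57.3 in g2. The highest gCtl library was 2.65 times the lowest, and 1 g1 library was above all the others. No comparison passed, with log2 fold changes of -0.11 pooled (95% interval -0.78 to 0.55, edgeR adjusted p = 0.819), 0.13 in g1 (-0.56 to 0.82) and -0.57 in g2 (-1.40 to 0.25).

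ABCC4 (MRP4), a pump for cyclic nucleotides and conjugates, separated the guides. It was at 94.7, 81.7, 92.8, 94.6 and 94.99 CPM in gCtl, at 106, 117 and 82.7 in g1 and at 68.6 and 53.1 in g2. Both g2 libraries were below every other library. Its log2 fold change was -0.59 ± 0.17 in g2 (edgeR adjusted p = 0.0198), 0.15 ± 0.14 in g1 (adjusted p = 0.501), -0.10 ± 0.18 pooled (adjusted p = 0.712) and -0.74 ± 0.19 in g2 against g1 (adjusted p = 0.0314). The g2 value lies at the fold minimum, and its call was lost without gCtl replicate 1, 4 or 5 (-0.58 each) or without g2 replicate 2 (-0.41). The difference between guides was lost without g1 replicate 1 or 2 or g2 replicate 2 (adjusted p 0.0934, 0.103 and 0.162).

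ABCC6 (MRP6), linked to ATP release and tissue mineralisation, rose in g1. It was at 7.40, 11.6, 11.7, 11.2 and 12.3 CPM in gCtl, at 19.7, 19.1 and 16.1 in g1 and at 7.37 and 14.7 in g2. All g1 libraries were above all gCtl libraries, and the g2 libraries lay on either side of gCtl. The log2 fold change was 0.75 ± 0.23 in g1 (edgeR adjusted p = 0.0338), 0.03 ± 0.28 in g2 (adjusted p = 0.949), 0.50 ± 0.24 pooled (adjusted p = 0.148) and -0.72 ± 0.30 in g2 against g1 (adjusted p = 0.182). The g1 call held in 1 of 8 fits without 1 library, that without gCtl replicate 5, and the adjusted p of the other fits ran from 0.0556 to 0.107. Without g2 replicate 2 the guides differed by -1.29 (adjusted p = 0.0486), and without g2 replicate 1 the pooled value was called at 0.66 (adjusted p = 0.0212). ABCC6 has a pseudogene of similar sequence, ABCC6P1, at 6.74 ± 1.5 CPM in gCtl, 10.8 ± 4.38 in g1 and 7.92 ± 1.95 in g2. Any sharing of reads between them was not tested.

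The remaining 4 conjugate pumps that were tested did not pass in any comparison of the main fit. ABCC3 (MRP3), the basolateral bile salt and glucuronide pump, was at 42.7 ± 3.42 CPM in gCtl, 41.0 ± 6.70 in g1 and 35.8 ± 7.91 in g2, with a pooled log2 fold change of -0.13 (95% interval -0.43 to 0.17). ABCC5 was at 16.0 ± 2.63, 16.8 ± 4.69 and 14.1 ± 0.0534 CPM (pooled -0.03, -0.43 to 0.38). ABCC10 was at 7.39 ± 0.92, 7.03 ± 1.72 and 10.1 ± 8.22 CPM, and ABCC1 was low at 3.06 ± 1.28, 1.96 ± 0.55 and 4.55 ± 3.96 CPM. The pooled log2 fold change of ABCC10 was 0.17, but 22.2% of its counts were protein_coding and 70.0% lay on the processed transcript ABCC10-008. With only protein_coding transcripts summed the pooled value was -1.63 and was called (edgeR adjusted p = 0.0266). On that sum it was -1.69 in g1 (adjusted p = 0.0588) and -1.53 in g2 (adjusted p = 0.117). Of the 9 tested efflux pumps, 2 were higher and none lower in the pooled comparison, 2 were higher and none lower in g1, and 2 were higher and 1 lower in g2. These are 22.2%, 22.2% and 33.3% of the pumps, beside 19.2%, 16.7% and 23.7% of all genes.

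**Figure D2:**
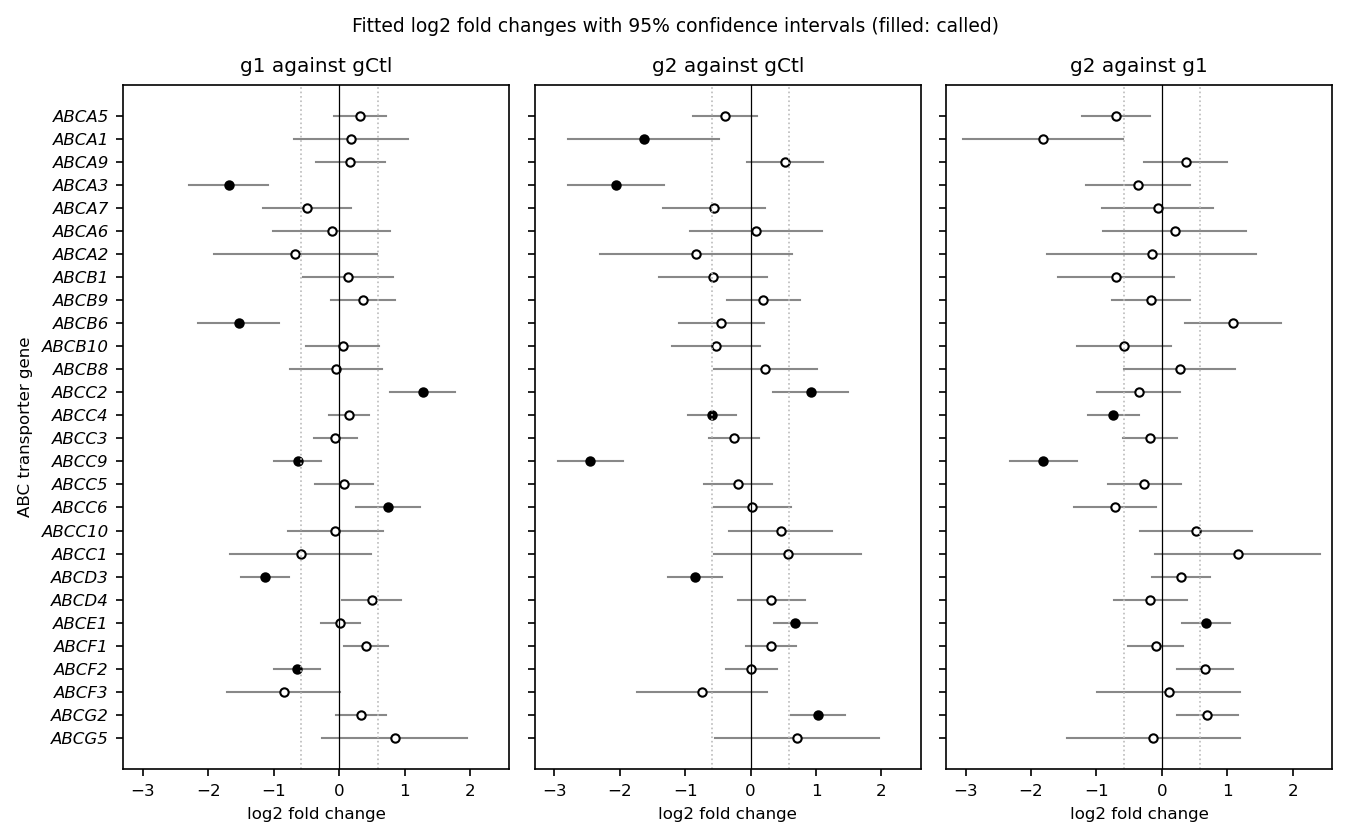
Fitted log2 fold changes (horizontal axis) of 28 of the 29 tested genes in g1 against gCtl, g2 against gCtl and g2 against g1, with 95% confidence intervals, filled points for called genes and dotted lines at a fold of 1.5. ABCC9 is at -0.64 in the first panel and -2.45 in the second, and in the third panel the filled points are ABCC4, ABCC9 and ABCE1.

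The translation factors included the most abundant member, ABCF1, and of the 4 tested ABCE1 rose in g2 and ABCF2 fell in g1. ABCE1, which splits ribosomes after termination, was at 107, 93.9, 80.9, 90.3 and 78.4 CPM in gCtl, at 82.8, 101 and 89.5 in g1 and at 138 and 152 in g2. Both g2 libraries were above all others. On the log2 scale the fold change was 0.69 ± 0.15 in g2 (edgeR adjusted p = 0.00493), 0.01 ± 0.14 in g1 (adjusted p = 0.951), 0.32 ± 0.17 pooled (adjusted p = 0.188) and 0.67 ± 0.17 in g2 against g1 (adjusted p = 0.0342). The difference between guides was lost without any 1 g1 library or without g2 replicate 2 (adjusted p 0.0505 to 0.124). With library totals in place of TMM the g2 value of ABCE1 was 0.53 and no longer called (adjusted p = 0.0277).

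ABCF2 fell in g1. It was at 49.8, 42.6, 49.0, 56.9 and 40.3 CPM in gCtl, at 30.0, 30.4 and 30.9 in g1 and at 37.7 and 58.2 in g2. The 3 g1 libraries lay close together below all gCtl libraries, while the g2 libraries spread around the gCtl range. The fitted log2 change was -0.65 ± 0.17 in g1 (edgeR adjusted p = 0.0141), 0.01 ± 0.19 in g2 (adjusted p = 0.967), -0.35 ± 0.19 pooled (adjusted p = 0.187) and 0.66 ± 0.20 in g2 against g1 (adjusted p = 0.0721). The g1 call was lost without gCtl replicate 4 (-0.58) or g1 replicate 1 (adjusted p = 0.0503), and without g2 replicate 1 the guides differed by 0.94 (adjusted p = 0.0126).

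ABCF1, a binding partner of initiation factor eIF2 and the most abundant member, did not pass in any comparison. It was at 269, 309, 283, 302 and 347 CPM in gCtl, at 436, 376 and 390 in g1 and at 284 and 465 in g2. The g1 libraries were above all gCtl libraries, but the fold was under 1.5, at 0.41 ± 0.16 on the log2 scale (edgeR adjusted p = 0.0794). The pooled value was 0.37 ± 0.14 (adjusted p = 0.075) and the g2 value 0.31 ± 0.18 (adjusted p = 0.215), and without g2 replicate 1 the g2 value was called at 0.62 (adjusted p = 0.0158). ABCF3 was low, at 5.29 ± 1.35 CPM in gCtl, 2.92 ± 1.52 in g1 and 3.21 ± 2.07 in g2, with a pooled log2 fold change of -0.81 (95% interval -1.54 to -0.07, adjusted p = 0.102), and 95.8% of its counts lay on retained-intron transcripts.

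The members of the cluster on chromosome 17, that were tested, ABCA5, ABCA6 and ABCA9, have less settled roles and did not pass. ABCA5 was at 17.2 ± 1.60 CPM in gCtl, 21.3 ± 5.04 in g1 and 13.2 ± 2.15 in g2, and g2 against g1 did not pass (-0.71 ± 0.25, edgeR adjusted p = 0.11). ABCA9 was at 9.95 ± 3.27, 11.2 ± 0.812 and 14.4 ± 0.299 CPM and ABCA6 at 2.85 ± 1.15, 2.70 ± 0.30 and 3.04 ± 1.69 CPM. ABCB8 (4.29 ± 0.659, 4.16 ± 0.708 and 4.95 ± 2.68 CPM) and ABCB10 (6.24 ± 1.28, 6.49 ± 0.673 and 4.31 ± 0.27 CPM), both of the mitochondrial inner membrane, and ABCA2 (2.36 ± 1.57, 1.47 ± 0.483 and 1.35 ± 0.886 CPM) and ABCA7 (9.65 ± 2.93, 6.70 ± 1.26 and 6.37 ± 3.94 CPM) complete the tested set.

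By subfamily, the summed RPM differed from gCtl in different directions. The 12 genes of subfamily A summed to 70.8 to 86.8 RPM in gCtl, 56.8 to 75.9 in g1 and 43.8 and 48.1 in g2. Subfamily D, of which ABCD3 held 79.9%, summed to 74.5 to 101 RPM in gCtl, 40.1 to 56.0 in g1 and 44.9 and 55.8 in g2. Its g1 and g2 libraries were all below gCtl, and those of subfamily A were below gCtl in g2. Subfamily C summed to 258 to 306 RPM in gCtl, 365 to 404 in g1 and 212 and 306 in g2. On this scale only g1 lay above the gCtl range. Subfamily G, of which ABCG2 held 88.0%, was at 19.3 to 28.0 RPM in gCtl, 23.1 to 33.7 in g1 and 37.5 and 46.2 in g2. Subfamily B was at 148 to 213, 161 to 219 and 121 to 138 RPM, and subfamily F, of which ABCF1 held 88.1%, at 336 to 393, 398 to 491 and 297 to 493 RPM. Subfamily E is ABCE1 alone. RPM has no TMM scaling. On TMM-normalized CPM subfamily B was at 142 to 206 in gCtl and at 133 and 147 in g2, so those ranges overlapped. Subfamily C was then at 247 to 306 in gCtl and at 234 and 326 in g2. These sums carry no test, since 1 gene can decide them.

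**Figure D3:**
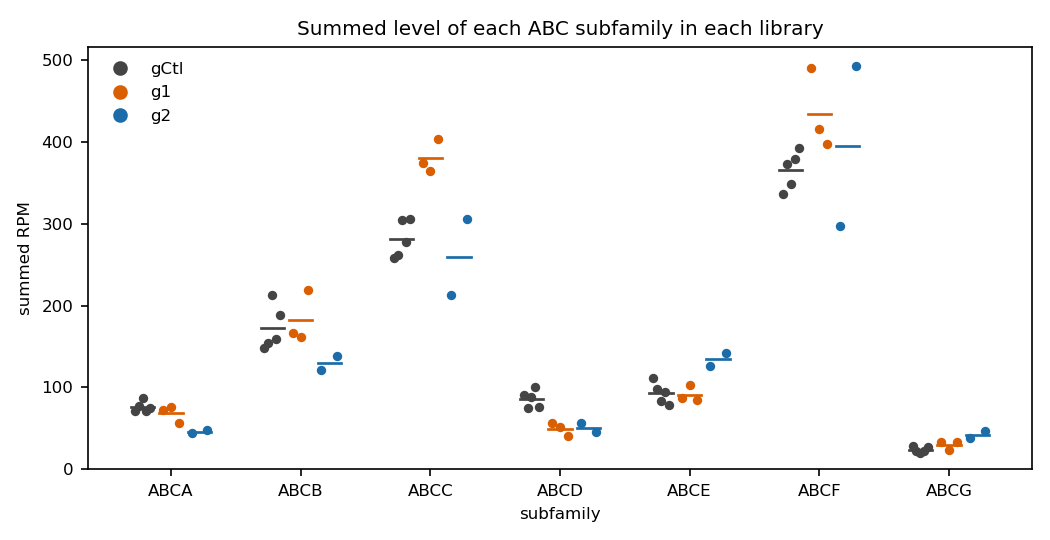
Summed RPM (vertical axis, from 0) of the members of subfamilies A to G in each library, with points for libraries and short lines for group means. Subfamily D is at 86.2 in gCtl, 49.3 in g1 and 50.4 in g2 on average, while subfamily G is at 23.5, 29.9 and 41.9.

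Counted by subfamily in the pooled comparison, where 19.2% of all genes were called, 1 of 7 tested members was called in A, 1 of 6 in B, 2 of 8 in C, 1 of 2 in D, none of 1 in E, none of 3 in F and 1 of 2 in G. The median log2 fold change was -0.30 in A, -0.02 in B, -0.02 in C, -0.29 in D, 0.32 in E, -0.35 in F and 0.72 in G. With g1 it was -0.12 in A, 0.09 in B, 0.01 in C, -0.32 in D, 0.01 in E, -0.65 in F and 0.59 in G. With g2 it was -0.57 in A, -0.26 in B, -0.08 in C, -0.26 in D, 0.69 in E, 0.01 in F and 0.87 in G. In g1 1 member was called in each of A, B, D and F, 3 in C and none in E and G (16.7% of all genes), and in g2 2 were called in A, 3 in C, 1 in each of D, E and G and none in B and F (23.7% of all genes). The libraries of the groups did not overlap for 3 of 29 members in the pooled comparison (15.4% of all genes), for 9 in g1 (26.5%), for 9 in g2 (38.0%) and for 10 in g2 against g1 (32.9%).

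The estimated counts of several members were spread over transcripts of different annotation. More than 50% of the counts lay on protein_coding transcripts in 17 of the 29 tested members and less in 12. For ABCE1 the protein_coding transcript ABCE1-001 took 41.0% of the counts, and stood at 71.5, 52.3, 38.4, 52.5 and 28.6 CPM in gCtl, 29.6, 29.1 and 29.8 in g1 and 72.9 and 31.7 in g2. Its nonsense-mediated decay transcript ABCE1-010 was at 69.9 CPM in g2 replicate 2 and at 16.9 to 30.3 in the other 9 libraries. The g2 libraries thus had like totals made of unlike parts, and with only protein_coding transcripts summed the g2 value of ABCE1 was 0.13 (edgeR adjusted p = 0.80) and the g1 value -0.70 (adjusted p = 0.10).

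ABCD3 was also split between protein_coding and other transcripts, while ABCC4 was split mainly between the protein_coding forms ABCC4-001 and ABCC4-006 (59.4% and 25.1% of counts). The protein_coding ABCD3-001 was at 34.9 to 47.3 CPM in gCtl, at 16.8, 5.07 and 11.2 in g1 and at 33.0 and 19.1 in g2, and on this sum the log2 fold change of ABCD3 was -1.91 in g1 (edgeR adjusted p = 0.0015) and -0.68 in g2 (adjusted p = 0.14). ABCC4-006, the shorter form, was at 11.7 to 13.7 CPM in 4 gCtl libraries and 43.6 in gCtl replicate 5. It was at 25.2 to 40.9 in g1 and at 9.40 and 7.59 in g2. With only protein_coding transcripts summed the g2 value of ABCC4 was -0.70 (edgeR adjusted p = 0.0251). For ABCA3, ABCC9 and ABCC2 100%, 100% and 99.5% of counts were protein_coding, and the calls were the same on that sum. How well 3' reads separate these transcripts was not tested.

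The 3 ABC genes that carry other symbols were read beside the members. TAP2, a subunit of the peptide transporter of antigen presentation, was at 17.0, 15.8, 15.0, 14.9 and 8.80 CPM in gCtl, 7.33, 10.1 and 6.58 in g1 and 7.17 and 5.23 in g2, and fell by 0.98 on the log2 scale in the pooled comparison (SE 0.23, edgeR adjusted p = 0.00751), by 0.84 in g1 (adjusted p = 0.0305) and by 1.2 in g2 (adjusted p = 0.0102). Its other subunit TAP1 was not tested, with 66.9 counts. CFTR (ABCC7), the apical chloride channel, was at 57.3 CPM in gCtl, 63.2 in g1 and 56.8 in g2, with a pooled log2 fold change of 0.08 (adjusted p = 0.746).

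Of the listed partners of these proteins 28 of 34 symbols were tested, and 2 rose and 4 fell in the pooled comparison, 4 rose and 3 fell in g1 and 2 rose and 4 fell in g2. These are 21.4%, 25.0% and 21.4% of the 28, beside 19.2%, 16.7% and 23.7% of all genes. In g2 against g1 none was higher and 3 were lower (10.7%, against 4.97%). One of these 3 was APOB, which encodes apolipoprotein B and was named here after its values were seen. APOB rose in g1 (0.78, edgeR adjusted p = 0.00863), fell in g2 (-0.84, adjusted p = 0.0135) and differed by -1.62 between the guides (adjusted p = 0.00183). The median log2 fold change of the partners was 0.04 pooled. MTTP, which loads lipid onto apolipoprotein B, rose from 19.1 CPM in gCtl to 69.5 in g1 and 80.3 in g2 (pooled 1.95 ± 0.18, edgeR adjusted p = 2.38e-05). PDZK1, a scaffold that holds apical transporters, fell from 42.8 to 23.9 and 17.2 CPM (-1.02 ± 0.20, adjusted p = 0.00278). EZR, the ezrin that ties them to actin, rose from 217 to 372 and 408 CPM (0.84 ± 0.18, adjusted p = 0.00422). Its g1 libraries were at 348, 244 and 523 CPM, beside 188 to 262 in gCtl. SCARB1, a lipoprotein receptor, was at 84.1, 57.6 and 37.9 CPM (-0.76 ± 0.18, adjusted p = 0.00708) and was not called in g1. NFS1, the cysteine desulfurase of iron-sulfur cluster assembly, was at 37.9, 19.7 and 24.6 CPM (-0.81 ± 0.20, adjusted p = 0.0107) and was not called in g2. For EZR, SCARB1 and NFS1 the libraries with a guide overlapped the gCtl range, while for MTTP and PDZK1 they did not.

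Of 19 listed regulators 14 were tested, and 3 rose and none fell in the pooled comparison (21.4%, against 19.2% of all genes), with a median log2 fold change of -0.06. In g1 2 rose and none fell (14.3%, against 16.7%), in g2 3 rose and 1 fell (28.6%, against 23.7%), and in g2 against g1 1 was higher (7.14%, against 4.97%). The one that fell in g2, named after its values were seen, was the xenobiotic receptor NR1I3 (-0.82, edgeR adjusted p = 0.0039). NR5A2, a nuclear receptor of bile acid and sterol genes, was at 15.4 CPM in gCtl, 34.5 in g1 and 28.2 in g2 (1.05 ± 0.15, edgeR adjusted p = 0.000283). PPARA, the receptor that controls fatty acid oxidation, was at 37.8, 61.9 and 69.7 CPM (0.78 ± 0.14, adjusted p = 0.00151). AHR, the aryl hydrocarbon receptor, was at 59.0, 74.2 and 150 CPM (0.83 ± 0.26, adjusted p = 0.0288), was not called in g1 and was higher in g2 than in g1 (1.01 ± 0.24, adjusted p = 0.0258).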

How the data were processed

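The 10 QuantSeq 3' libraries were described in tables of estimated counts per transcript, which the authors made with Kallisto (version 42.5 in the submitters' notes) against GENCODE 24 transcripts, without normalization or pooling, as deposited. Transcript counts were summed per gene, rounded to whole numbers and tested with edgeR 4.0.16 (quasi-likelihood, TMM, R 4.3.3), in a pooled fit of g1 and g2 against gCtl and in a fit of 3 groups. The 11640 genes that entered had a protein_coding transcript and exceeded 3 RPM in 20% or more of the libraries. A call required a fold of 1.5 or more in either direction, with p adjusted by Benjamini-Hochberg no higher than 0.05. Total counts per library were 3838803 to 8730468, and counting error is largest for genes of few counts. TPM was computed from estimated counts and annotated lengths. Members called in any comparison and the 8 highest by RPM were given in every library. Of the lists KCNJ8, KCNJ11, CFTR, TAP1 and TAP2 were named, with at most 8 others called in 2 comparisons, in order of pooled adjusted p. The pseudogenes, single transcripts, single markers, APOB and NR1I3 were chosen after their values were seen. The members and lists were chosen with earlier results of these data known. The scripts were tested on simulated data. Alternatives were DESeq2 1.42.0, limma 3.58.1, other scalings, filters, transcript sums and left-out libraries. Gene positions and neighbours are from GENCODE on GRCh38. Promoters are RefSeq's on GRCh38.p14. A few withheld genes are not reported here. No guide or protein sequence was used here.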

Additional observations from a re-analysis of the deposited data

Results flagged for a closer look

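In the gCtl libraries ABCC4 was at 81.7 CPM in replicate 2 and at 92.8 to 94.99 in the other 4, and the gap to the nearest was 0.833 of the range, above Dixon's critical value of 0.71 for 5 samples. ABCC6 was at 7.4 CPM in gCtl replicate 1 and at 11.2 to 12.3 in the other 4, a gap of 0.77 of the range. Chance alone puts about 1 in 20 such groups past that value.

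The difference between the guides was itself called for 3 members with edgeR. On the log2 scale g2 was 1.81 below g1 for ABCC9 (-1.81) and 0.74 below for ABCC4 (-0.74), and 0.67 above for ABCE1. With DESeq2 5 members were called in g2 against g1, where 841 of 11640 genes were called. With protein_coding transcripts alone the edgeR adjusted p of this difference was 0.0028 for ABCC9, 0.0589 for ABCC4 and 0.19 for ABCE1.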

How the results depend on the processing

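The counts that follow cover the members given in every library. Of 763 such fold changes under alternatives other than a left-out library, 691 kept their direction and their side of the call, 47 lost the call, 3 gained it and 22 changed sign. With 1 library left out these counts were 324, 42, 5 and 19 of 390. The calls on ABCA3 with both guides, ABCC2 and ABCD3 with g1 and ABCC9 with g2 held under every alternative run. That on ABCB6 with g1 held in the 14 alternatives it entered and with any 1 library left out. ABCB6 did not enter the fit on protein_coding transcripts alone, and much of its g1 fall lay on ABCB6-012 and ABCB6-014, which are not protein_coding. Of the 15 alternatives other than a left-out library, the call on ABCA1 in g2 held in 11 and was lost with DESeq2 (adjusted p = 0.0588). That on ABCC2 in g2 held in 11 and was lost with limma on log2(RPM + 1), log2(RPM + 0.1) and log2(TPM + 1). ABCC6 in g1 held in 11, ABCC4 and ABCE1 in g2 in 10 each and ABCG2 pooled in 9. The cause of these changes and of those below was not tested. No paired analysis was possible because the labels carry no replicate numbers. Where g2 kept 1 library, that library was assumed to vary like the others.

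Called members numbered 2 pooled, 4 in g1, 2 in g2 and 1 in g2 against g1 when tested against a fold of 1.5, where all genes gave 488, 506, 802 and 92 calls. On limma with log2(TPM + 1) they numbered 4 in g1, 5 in g2 and 1 in g2 against g1, where all genes gave 1692, 2514 and 621 calls. With protein_coding transcripts alone they numbered 5 in g2 and 1 in g2 against g1, where 2073 and 360 of 10268 genes were called. With DESeq2 they numbered 5 in g2 against g1, where 841 of 11640 genes were called, against 579 in the main fit. With 1 library left out they ranged from 3 to 7 pooled (3 without gCtl replicate 2), 5 to 7 in g1, 4 to 12 in g2 (4 without g2 replicate 2 and 12 without g2 replicate 1) and 1 to 5 in g2 against g1 (1 without g1 replicate 1 or 2 and 5 without g2 replicate 1), and 28 to 29 members were expressed.

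Library totals in place of TMM moved the median of all genes to -0.07 pooled, -0.03 in g1, -0.16 in g2 and -0.10 in g2 against g1, and g2 then had 2061 lower and 750 higher calls, against 1514 and 1242. Log2 fold changes of these members changed sign. For ABCA1 in g1 the value was -0.012 on log2(RPM + 1) and -0.036 on log2(RPM + 0.1). For ABCC4 pooled it was 0.146 on TPM, and for ABCD3 in g2 against g1 -0.294 on TPM. For ABCC6 in g2 it was -0.122 on library totals, -0.018 with all biotypes, -0.169 and -0.190 on log2(RPM + 1) and log2(RPM + 0.1), -0.360 on TPM and -0.030 without the length trend. For ABCE1 in g1 it was -0.032, -0.016, -0.026 and -0.027 on the first 4 of these, and -0.702 with protein_coding transcripts alone (-0.312 pooled). For ABCF2 in g2 it was -0.143, -0.034, -0.170, -0.174, -0.261 and -0.009 in that order.

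With 1 library left out, signs changed within these ranges: ABCA1 in g1 -0.178 to 0.619, ABCA3 in g2 against g1 -1.109 to 0.103, ABCB1 in g1 -0.496 to 0.372 and pooled -0.533 to 0.093, ABCC2 in g2 against g1 -0.865 to 0.032, and ABCC4 pooled -0.238 to 0.018. The others were ABCC6 in g2 -0.560 to 0.424, ABCE1 in g1 -0.062 to 0.083, ABCF1 in g2 -0.082 to 0.616 and in g2 against g1 -0.475 to 0.224, and ABCF2 in g2 -0.330 to 0.285.

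Summed subfamily levels, as log2 of a guide over gCtl, moved as follows. With TMM-normalized CPM, A in g2 was -0.570, C in g2 0.034 and F in g2 0.261. On TPM, C in g2 was 0.018, D in g1 -0.372, E in g1 0.427, E in g2 0.834 and F in g1 0.404. With protein_coding transcripts alone, A in g2 was -1.148, D in g1 -1.727, E in g1 -0.773 and E in g2 -0.070. Left-out libraries gave C in g2 -0.407 to 0.121, F in g1 0.152 to 0.308 and F in g2 -0.302 to 0.428.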
